A study of Mus musculus with 6 samples.

Results

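The nuclear-encoded genes of the respiratory chain were compared between luminal epithelium with and without Foxo1. They were taken from the deposited expression table by their symbols: those beginning with Nduf, Uqc, Atp5 or Cox4 to Cox8, and Sdha, Sdhb, Sdhc, Sdhd, Cyc1 and Cycs. This gave 97 of the 24964 genes listed. They are 37 genes named as subunits of complex I, 8 assembly factors of complex I with a Ndufaf name and 4 subunits of complex II. The others are 12 genes of complex III, cytochrome c, 19 genes of complex IV and 16 genes of complex V. Ndufa4, now known as a subunit of complex IV despite its name, was counted with complex IV. Its relative Ndufa4l2 was left with complex I by its name alone.

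RNA was sequenced from the luminal epithelium of the mouse uterus, the cell layer that faces the embryo, cut out by laser capture on day 4 of pregnancy. The controls, Foxo1ff, were 3 samples from Foxo1f/f females, whose Foxo1 alleles are floxed and intact. The other 3 samples, Foxo1dd, came from Pgrcre/+Foxo1f/f females, which carry the same floxed alleles and 1 copy of Cre inserted at Pgr, the progesterone receptor gene. Females of both groups were housed with littermates to 8 weeks of age and then mated. Cre driven from Pgr acts in every cell that has expressed that gene, the uterine stroma and muscle and other progesterone-responsive organs included, and the Cre-bearing Pgr allele is present in Foxo1dd alone, so Foxo1 loss and the Cre allele cannot be told apart. The number of animals behind a sample is not given in the sources used here, so the p-values speak to the spread among these samples. Foxo1, the deleted forkhead factor, was at 160, 119 and 111 FPKM in Foxo1ff and at 1.72, 0.942 and 1.22 FPKM in Foxo1dd (FPKM, a level divided by gene length and library depth). Pgr itself was at 2.44, 1.64 and 2.02 FPKM in the Foxo1ff samples and at 36.2, 29.9 and 28.3 FPKM in the Foxo1dd samples.

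The respiratory chain passes electrons from NADH (complex I) or succinate (complex II) through coenzyme Q to complex III, on to cytochrome c and from there to oxygen at complex IV. Complexes I, III and IV pump protons across the inner mitochondrial membrane, and complex V, the ATP synthase, makes ATP as the protons return. A few core subunits are made from mitochondrial DNA, which is not analysed here. All the others are made from the nucleus, imported, and put together with the help of assembly factors that are not part of the finished complex.

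The 11427 genes that averaged 1 FPKM or more were tested with limma as log2(FPKM + 1), and a gene was called when its p, adjusted by Benjamini-Hochberg, was under 0.05. Log2 changes below are Foxo1dd minus Foxo1ff on that scale and come with their standard error, with 3 samples in each group. Of the 97 respiratory chain genes 89 passed the minimum. Among these, 16 were called higher and 23 lower in Foxo1dd, or 18.0% and 25.8%, and 50 were not called. Over all tested genes 22.2% were called higher and 34.2% lower, so both shares of the respiratory chain genes lay below those of the whole table. Their median log2 change was -0.005, with a range from -1.39 to 1.70, against a median of -0.15 over all tested genes. The 16 higher calls and the upper end of this range include Cox7a1. It averaged under 1 FPKM in Foxo1ff and was tested only through its Foxo1dd values. A change of at least 1 in log2 was seen for 7 of the 89 genes, 7.9%, and for 27.1% of all tested genes. The groups did not overlap for 22 genes that lay higher and 24 that lay lower in Foxo1dd, where the whole table had 25.3% and 39.0%.

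The counts depended on how the libraries were put on a common scale. With median-of-ratios scaling the counts were 19 higher and 12 lower (26.9% and 30.0% over all tested genes), with quantile normalization 28 and 14 (28.3% and 29.4%), and with equal summed FPKM 30 and 7 (28.7% and 25.4%). On these scales the median of all tested genes moved from -0.15 to -0.03, -0.004 and 0.04. All 16 higher calls were also made on the other 3 scales, and 7 of the 23 lower calls were. Since each of these scales moved the genes upward together, keeping a higher call on them is no sign of stability. Over all 17 alternative fits, those without 1 sample included, 14 of the 16 higher calls were kept. Over the whole table, 22.2% of genes were called higher on all 4 scales and 25.2% lower. The 7 were Ndufaf2, Cycs, Cox7b, Atp5s, Atp5g1, Cox6c and Uqcc2. The other 16 lower calls were not made with equal summed FPKM.

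**Figure D1:**
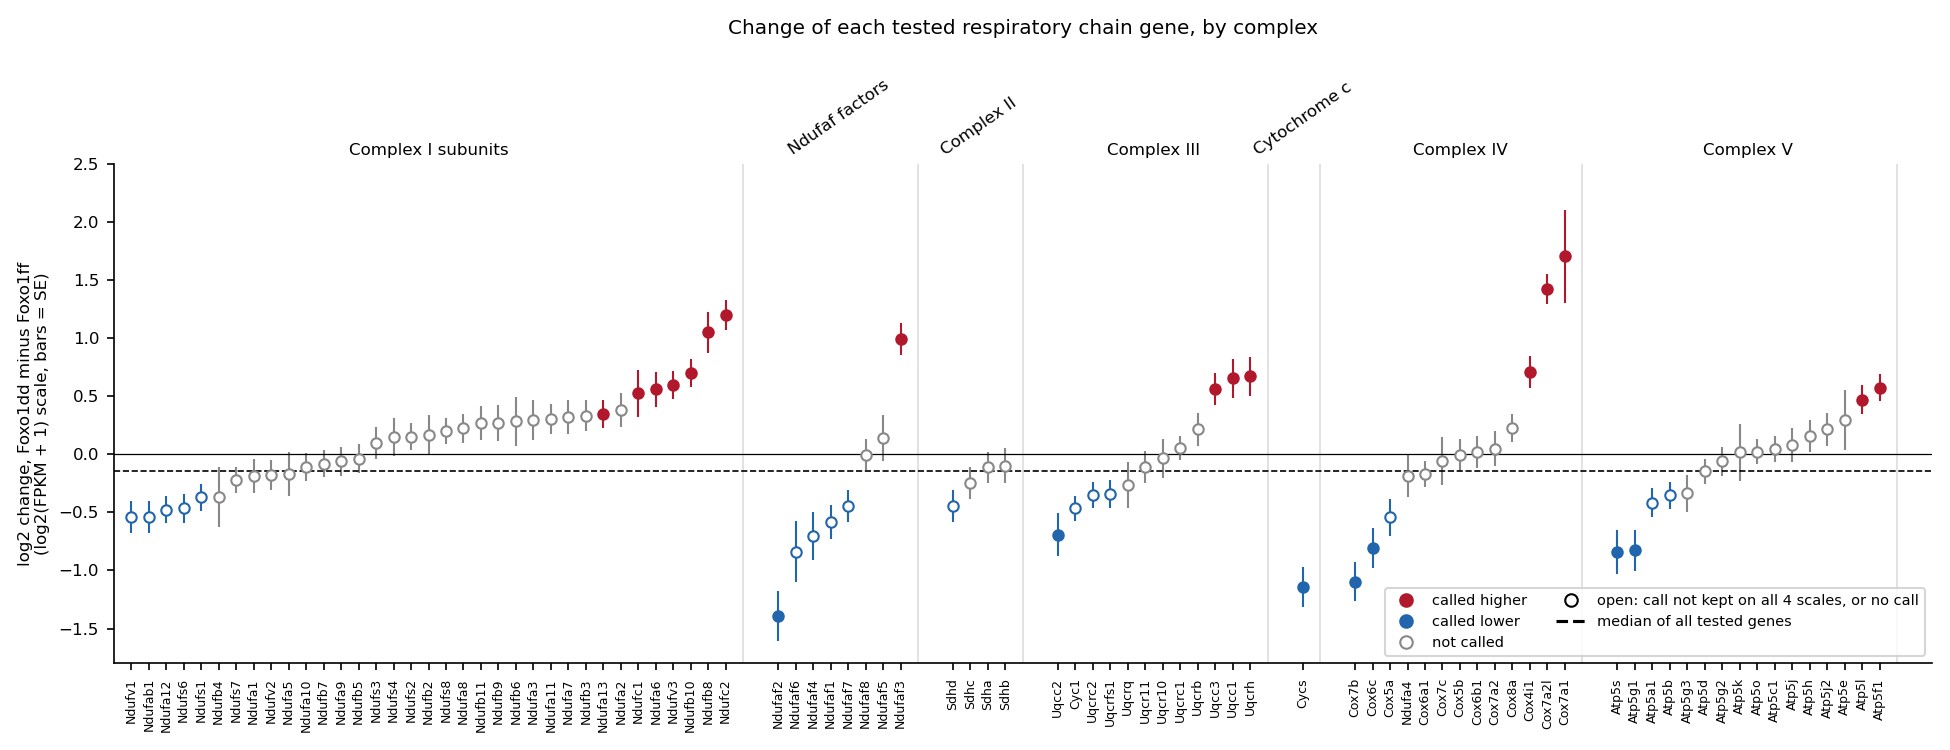
Log2 change of each of the 89 tested genes (points, with the standard error as bars), grouped by complex and ordered by size; red points were called higher and blue points lower, and filled points kept their call on all 4 scales. The changes run from -1.39 for Ndufaf2 to 1.70 for Cox7a1, which was tested only through its Foxo1dd values. Every complex with more than 10 tested genes holds calls in both directions, and the dashed line is the median of all tested genes.

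**Figure D2:**
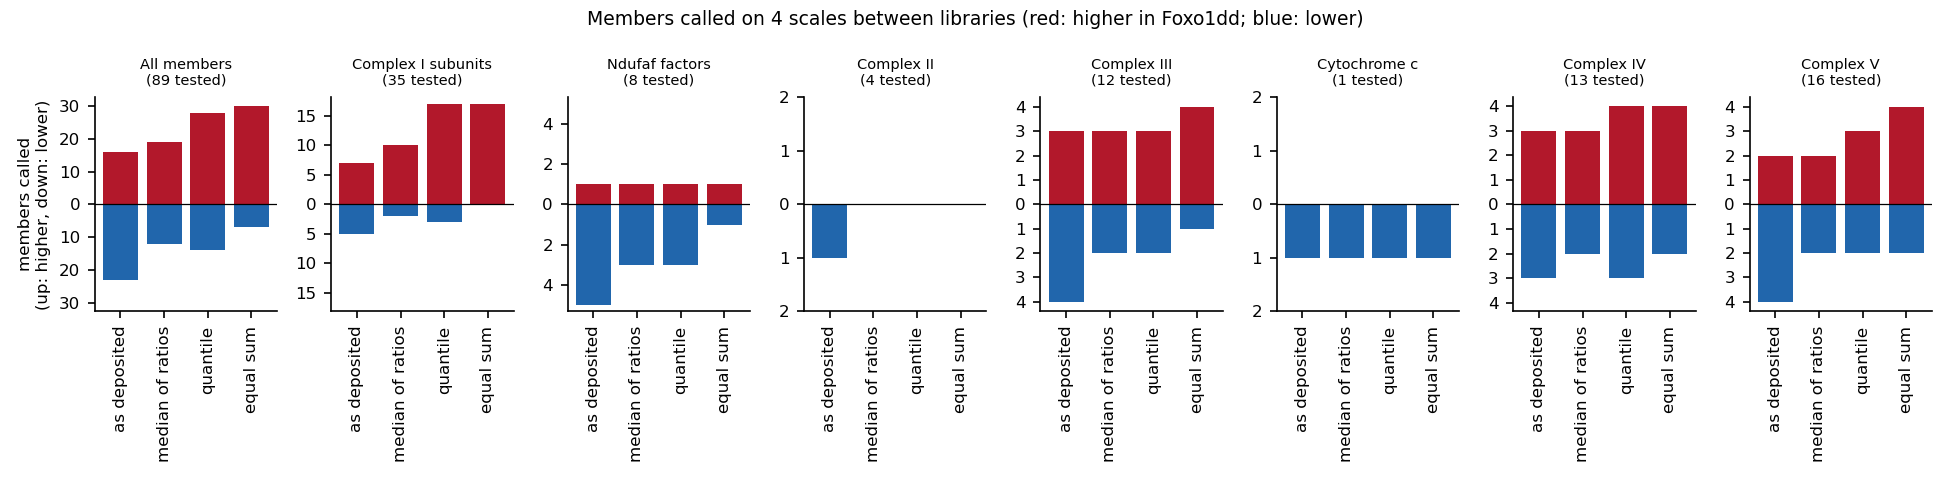
Number of genes called higher (red, upward) and lower (blue, downward) in Foxo1dd on each of 4 scales, over all members and by complex. Over all members the bars go from 16 higher and 23 lower on the deposited scale to 30 higher and 7 lower with equal summed FPKM, and complex I subunits go from 7 and 5 to 17 and 0. Over all tested genes the shares go from 22.2% higher and 34.2% lower to 28.7% and 25.4%.

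Promoters of respiratory chain genes are known to hold sites for the nuclear respiratory factor NRF1, the ETS factor GABP, YY1 and the estrogen-related receptors. Windows from 250 bases before to 50 after the transcription start, taken from RefSeq (GRCm38.p6), matched 80 of the 97 genes. Both strands were searched for fixed letters. In these windows no match of 1 motif overlapped a match of another, although a palindromic NRF1 site can match on each strand. The NRF1 letters GCGCATGC were in 13 windows, 16.2%, against 3.0% of 27025 genes, and the YY1 letters AAGATGGC in 12, 15.0%, against 3.2%. The ETS letters CCGGAAG were in 18, 22.5% against 9.9%, and the ERR letters AAGGTCA in 9, 11.2% against 5.4%. The FOXO letters GTAAACA were in 2, 2.5% against 4.1%, those of Cox7a2 and Ndufaf1. The letters did not go with 1 direction. Among 15 matched genes called higher, 17 called lower and 44 not called, NRF1 letters were in 2, 2 and 9, and YY1 letters in 3, 2 and 7. A match describes letters in this window, not a bound site.

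The windows below belong to genes called in 1 direction on all 4 scales, and are shown so that a gene that rose and a gene that fell can be seen with the same letters. Capitals mark a searched motif on either strand, and all are written along the gene. Ndufa6 (called higher) and Cycs (called lower) both hold NRF1 letters, and Ndufb8 (higher) and Uqcc2 (lower) both hold YY1 letters just after the start. Cox7a2l, called higher with the smallest adjusted p of the 97 genes, holds none of the 5 motifs in its window. That window lies inside the GENCODE span of the gene, which reaches to 83517330, so the upstream end of the span was not searched.
Ndufa6, chr15:82354242-82354541, minus strand: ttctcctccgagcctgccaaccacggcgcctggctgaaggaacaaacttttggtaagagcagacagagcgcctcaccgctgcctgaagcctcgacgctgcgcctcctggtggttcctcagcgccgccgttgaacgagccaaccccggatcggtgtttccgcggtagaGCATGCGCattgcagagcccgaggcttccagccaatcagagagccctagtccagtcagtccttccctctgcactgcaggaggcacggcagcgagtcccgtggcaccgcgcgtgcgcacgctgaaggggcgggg
Cycs, chr6:50566520-50566819, minus strand: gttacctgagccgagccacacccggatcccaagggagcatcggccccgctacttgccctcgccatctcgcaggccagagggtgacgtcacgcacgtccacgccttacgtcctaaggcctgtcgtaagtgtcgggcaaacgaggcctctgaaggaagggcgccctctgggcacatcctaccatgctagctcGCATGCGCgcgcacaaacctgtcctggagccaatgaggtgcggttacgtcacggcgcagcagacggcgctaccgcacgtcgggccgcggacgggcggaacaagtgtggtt
Ndufb8, chr19:44555393-44555692, minus strand: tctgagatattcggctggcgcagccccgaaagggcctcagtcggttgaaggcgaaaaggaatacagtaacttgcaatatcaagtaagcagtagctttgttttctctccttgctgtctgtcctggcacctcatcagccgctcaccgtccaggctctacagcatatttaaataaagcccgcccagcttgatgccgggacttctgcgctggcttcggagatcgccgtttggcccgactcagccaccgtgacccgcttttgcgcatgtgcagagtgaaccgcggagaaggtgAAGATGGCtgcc
Uqcc2, chr17:27133842-27134141, minus strand: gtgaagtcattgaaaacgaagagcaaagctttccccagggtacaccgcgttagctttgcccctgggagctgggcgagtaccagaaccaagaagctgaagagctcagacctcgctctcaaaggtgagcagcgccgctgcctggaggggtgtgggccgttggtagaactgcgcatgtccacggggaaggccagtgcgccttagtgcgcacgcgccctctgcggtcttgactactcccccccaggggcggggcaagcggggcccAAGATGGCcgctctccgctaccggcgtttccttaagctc
Cox7a2l, chr17:83514284-83514583, minus strand: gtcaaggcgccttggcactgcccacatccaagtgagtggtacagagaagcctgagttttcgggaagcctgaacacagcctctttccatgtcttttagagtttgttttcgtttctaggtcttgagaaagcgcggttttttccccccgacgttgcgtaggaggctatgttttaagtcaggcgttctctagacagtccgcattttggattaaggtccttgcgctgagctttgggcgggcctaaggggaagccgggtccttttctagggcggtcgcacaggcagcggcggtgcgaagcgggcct

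Complex I takes electrons from NADH. Of its 35 tested subunits 7 were called higher and 5 lower, with a median log2 change of 0.17. With equal summed FPKM 17 were higher and 0 lower, the widest swing among the complexes. Ndufs5 was listed at 0 in all 6 samples, although it is a subunit that cells with complex I use, so an exact 0 in this table may not be a measurement. The other untested one, Ndufa4l2, a relative of Ndufa4 known from low oxygen and counted here by its name alone, reached at most 0.188 FPKM.

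The largest rises in complex I were in its membrane arm, the part that pumps protons. Ndufc2 (chromosome 7, 97400003 to 97407802, plus strand, GRCm38), a membrane arm subunit, was at 101, 113 and 128 FPKM in the Foxo1ff samples and 251, 292 and 247 FPKM in the Foxo1dd samples. It was 2.30-fold higher, with a log2 change of 1.20 ± 0.13 (limma adjusted p = 6.38e-05). Every Foxo1dd sample lay well above every control. Ndufb8 (chromosome 19, 44548572 to 44555440, minus strand) went from 58.2, 67.3 and 80.9 FPKM to 136, 177 and 119 FPKM, with a log2 change of 1.05 ± 0.18 (limma adjusted p = 0.000864). Its exons share a strand with the gene model Gm20538, so reads may be split between them. Ndufb10 was at 55.6, 60.9 and 69.1 FPKM against 102, 95.7 and 105 FPKM, a log2 change of 0.70 ± 0.12 (limma adjusted p = 0.000968). For both of these genes the groups were also apart.

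4 further subunits were called higher by smaller amounts. Ndufv3, a small partner of the NADH-binding flavoprotein, went from 25.3, 27.0 and 24.7 FPKM to 35.3, 41.9 and 41.0 FPKM (0.60 ± 0.12, limma adjusted p = 0.0026). Ndufa6, which binds the matrix arm together with an acyl carrier protein, went from 225, 272 and 251 FPKM to 305, 419 and 385 FPKM (0.56 ± 0.15, limma adjusted p = 0.0104). Their groups did not overlap. Ndufa13, also known as GRIM-19, had 71.4, 84.9 and 83.7 against 94.2, 111 and 100 FPKM (0.34 ± 0.12, limma adjusted p = 0.0374). Ndufc1 had 47.4, 70.2 and 82.8 against 106, 95.0 and 82.4 FPKM, so that the groups overlapped slightly (0.52 ± 0.20, limma adjusted p = 0.0489). These last 2 calls were the least secure, and each was kept in 9 of 17 alternative fits. The Ndufa13 call was lost when any sample but Foxo1dd 1 was left out, with limma adjusted p up to 0.108, and the Ndufc1 call without Foxo1ff 1, Foxo1ff 2, Foxo1dd 1 or Foxo1dd 2, with limma adjusted p up to 0.155. Ndufc1 also lies within 0.864 Mb of Foxo1, on the chromosome whose Foxo1 allele was floxed in both groups.

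The 5 lower calls in complex I were Ndufv1, Ndufab1, Ndufa12, Ndufs6 and Ndufs1, named after their values were seen, with log2 changes from -0.54 to -0.37. Ndufv1 and Ndufs1 carry the flavin and iron-sulfur groups that accept electrons from NADH, Ndufa12 and Ndufs6 join the same module late in assembly, and Ndufab1 is the acyl carrier protein. Ndufv1 was at 49.1, 60.2 and 58.2 FPKM in the Foxo1ff samples and 42.3, 32.9 and 39.3 FPKM in the Foxo1dd samples. With equal summed FPKM none of the 5 was called, with a log2 change of -0.34 for Ndufv1 (limma adjusted p = 0.0537). Splitting complex I by role, a split made after the values were seen, put 0 higher and 2 lower calls among 7 core subunits that carry out the redox chemistry, with a median of -0.18. These are 0.0% and 28.6%, against 22.2% and 34.2% of all tested genes, and the median was near their -0.15. The 28 tested supernumerary subunits, which surround and stabilise the core, had 7 higher and 3 lower calls, 25.0% and 10.7% against 22.2% and 34.2% of all tested genes, and a median of 0.27. The core genes were longer, with a median exon length of 2178 bases against 1373. Length moved with the change over the 89 tested members too: the median log2 change was 0.12 for the 12 under 800 bases, 0.20 for the 25 from there to 1500, -0.10 for the 29 from there to 3000 and -0.11 for the 23 longer ones. The part of length in this split was not tested. With equal summed FPKM the higher and lower calls were 2 and 0 for the core and 15 and 0 for the supernumerary subunits. These are 28.6% and 0.0%, and 53.6% and 0.0%, against 28.7% and 25.4% of all tested genes. The most abundant tested subunit was Ndufa6 and the least abundant Ndufa11, which was not called (16.5, 17.7 and 19.9 against 23.7, 21.7 and 22.0 FPKM, limma adjusted p = 0.0665).

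Of the 8 Ndufaf assembly factors 1 was called higher and 5 lower on the deposited scale, with a median log2 change of -0.51. These are 12.5% and 62.5%, against 22.2% and 34.2% of all tested genes. With median-of-ratios scaling 1 was higher and 3 lower, 12.5% and 37.5% against 26.9% and 30.0%. With equal summed FPKM 1 and 1 were called, 12.5% each, below the 28.7% and 25.4% of all tested genes. Ndufaf2 (chromosome 13, 108002715 to 108158623, minus strand), a relative of Ndufa12 that acts late in assembly, was at 11.7, 17.8 and 15.6 FPKM in the Foxo1ff samples and 5.13, 3.79 and 6.46 FPKM in the Foxo1dd samples. It was 2.93-fold lower (-1.39 ± 0.21, limma adjusted p = 0.000473), with no overlap between groups. Ndufaf3 and Ndufaf4 work as partners on the arm that binds coenzyme Q, and they moved in opposite directions. Ndufaf3 (chromosome 9, 108565537 to 108567434, minus strand) rose from 10.3, 11.8 and 11.5 to 22.4, 26.8 and 20.8 FPKM (0.99 ± 0.14, limma adjusted p = 0.000325). Ndufaf4 fell from 10.2, 9.21 and 9.91 to 8.09, 4.50 and 4.77 FPKM (-0.70 ± 0.21, limma adjusted p = 0.0164). The Ndufaf4 call was kept in 15 of 17 alternative fits, and was lost with equal summed FPKM (limma adjusted p = 0.063) and without Foxo1dd 3.

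Ndufaf1, which acts on the membrane arm, fell from 12.8, 12.9 and 11.5 to 9.21, 7.67 and 7.05 FPKM (-0.59 ± 0.15, limma adjusted p = 0.00794), a call lost with equal summed FPKM (limma adjusted p = 0.0521). Ndufaf6 and Ndufaf7, named after their values were seen, were the other lower calls, at -0.84 and -0.44, and were kept in 9 and 11 of 17 fits. Neither was called with equal summed FPKM (limma adjusted p = 0.0594 and 0.156). Ndufaf8 and Ndufaf5 were not called (limma adjusted p = 0.984 and 0.577). Without Foxo1dd 3 the Ndufaf lower calls numbered 2, and without Foxo1ff 2 or Foxo1ff 3 they numbered 3. Exons of Ndufaf3 lie opposite those of Impdh2 and exons of Ndufaf2 opposite those of B230220B15Rik, and the strand setting of the counting is not given in the sources used here.

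Complex II, succinate dehydrogenase, showed the smallest changes. Of its 4 subunits 0 were called higher and 1 lower, with a median log2 change of -0.18. These are 0.0% and 25.0%, against 22.2% and 34.2% of all tested genes. Sdhd, a membrane anchor, was at 229, 283 and 292 FPKM in the Foxo1ff samples and 184, 223 and 183 FPKM in the Foxo1dd samples (-0.44 ± 0.14, limma adjusted p = 0.0227). The groups did not overlap, but the call was lost on each of the other 3 scales and without any 1 of 4 samples (Foxo1ff 2, Foxo1ff 3, Foxo1dd 1 or Foxo1dd 3). The other anchor, Sdhc, had 85.7, 104 and 114 against 93.8, 83.6 and 76.9 FPKM, and the catalytic subunits Sdha and Sdhb had log2 changes of -0.11 and -0.10 with adjusted p-values of 0.496 and 0.6 by limma. Their groups overlapped.

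Complex III hands electrons from coenzyme Q to cytochrome c. Of its 12 genes 3 were called higher and 4 lower, with a median of -0.07. These are 25.0% and 33.3%, near the 22.2% and 34.2% of all tested genes. With equal summed FPKM 4 and 1 were called, 33.3% and 8.3% against 28.7% and 25.4%. Uqcrh, the hinge subunit that helps dock cytochrome c, rose from 253, 337 and 380 to 507, 571 and 451 FPKM (0.67 ± 0.17, limma adjusted p = 0.00834). The lowest Foxo1dd sample lay above the highest control. The assembly factors Uqcc1 and Uqcc2 act together on newly made cytochrome b, and they moved apart. Uqcc1 rose from 21.3, 20.1 and 22.6 to 37.4, 26.3 and 40.2 FPKM (0.65 ± 0.17, limma adjusted p = 0.00867), and Uqcc2 fell from 58.8, 67.2 and 90.2 to 49.8, 46.7 and 35.3 FPKM (-0.69 ± 0.19, limma adjusted p = 0.0111). Uqcc3, which acts after them, rose from 22.2, 23.9 and 22.7 to 30.3, 40.4 and 33.0 FPKM (0.56 ± 0.14, limma adjusted p = 0.00667). Each of the 3 assembly factors thus had groups that did not overlap.

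Cyc1, the subunit whose heme reduces cytochrome c, was at 149, 169 and 164 FPKM in the Foxo1ff samples and 115, 117 and 116 FPKM in the Foxo1dd samples (-0.47 ± 0.11, limma adjusted p = 0.00494). Uqcrc2 and the Rieske protein Uqcrfs1, named after their values were seen, were lower by -0.35 and -0.34. The Cyc1 call was kept in 16 of 17 fits and the Uqcrfs1 call in 8. With equal summed FPKM none of the 3 was called, with a log2 change of -0.26 for Cyc1 (limma adjusted p = 0.0553). The lower calls in complex III numbered 2 without Foxo1ff 2, Foxo1ff 3 or Foxo1dd 3. The other 5 genes of complex III were not called, with log2 changes from -0.27 to 0.21.

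Cytochrome c itself fell. Cycs (chromosome 6, 50562563 to 50566538, minus strand), the soluble carrier between complexes III and IV, was at 21.1, 25.4 and 29.3 FPKM in the Foxo1ff samples and 13.4, 9.91 and 9.50 FPKM in the Foxo1dd samples. It was 2.31-fold lower, with a log2 change of -1.14 ± 0.17 (limma adjusted p = 0.000499), and the highest Foxo1dd sample lay well below the lowest control. The call held in 17 of 17 alternative fits.

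Complex IV, cytochrome c oxidase, held the largest rise and some of the largest falls among the 97 genes. Of 13 tested genes 3 were called higher and 3 lower, with a median log2 change of -0.005. These are 23.1% each, against 22.2% and 34.2% of all tested genes. Cox7a1, the largest rise and counted among the 3 higher, passed the minimum only through its Foxo1dd values. With equal summed FPKM 4 and 2 were called, 30.8% and 15.4% against 28.7% and 25.4%. Cox7a2l (chromosome 17, 83501918 to 83517330, minus strand) is the relative of Cox7a2 that links complex III to complex IV in supercomplexes. It was at 170, 203 and 213 FPKM in the Foxo1ff samples and 481, 563 and 529 FPKM in the Foxo1dd samples, which is 2.68-fold higher (1.42 ± 0.13, limma adjusted p = 2.33e-05). All 3 Foxo1dd samples stood far above the controls. Cox4i1 (chromosome 8, 120668222 to 120674207, plus strand), the usual form of a regulatory subunit that joins early in assembly, rose from 416, 515 and 507 to 741, 869 and 738 FPKM (0.71 ± 0.14, limma adjusted p = 0.00205). Its exons lie opposite those of Emc8.

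Cox7b (chromosome X, 106015700 to 106022450, plus strand), a small membrane subunit, fell from 234, 314 and 320 to 147, 146 and 111 FPKM. It was 2.15-fold lower (-1.10 ± 0.17, limma adjusted p = 0.000472). Cox6c, another small membrane subunit and the most abundant tested gene of complex IV in the controls, fell from 532, 641 and 729 to 369, 425 and 293 FPKM (-0.81 ± 0.17, limma adjusted p = 0.00347). Neither gene had overlapping groups, and exons of Cox6c lie opposite those of Vps13b. Cox5a, the partner of Cox4i1 in early assembly and named after its values were seen, was at 305, 321 and 452 against 246, 242 and 240 FPKM (-0.54 ± 0.16, limma adjusted p = 0.0155), and was not called with median-of-ratios scaling or equal summed FPKM (limma adjusted p = 0.0811 and 0.0869). The remaining common subunits were not called: Cox8a had a log2 change of 0.23, Cox7a2 0.05, Cox6b1 0.02, Cox5b -0.005, Cox7c -0.06, Cox6a1 -0.17 and Ndufa4 -0.19.

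Several complex IV subunits exist in a form known from heart and skeletal muscle. Cox7a1 (chromosome 7, 30184144 to 30186078, plus strand), the muscle form of Cox7a, was at 0.674, 0.776 and 0.132 FPKM in the Foxo1ff samples and 1.63, 3.92 and 7.97 FPKM in the Foxo1dd samples (1.70 ± 0.40, limma adjusted p = 0.00595). All 3 Foxo1dd samples lay above the controls, and they varied among themselves more than 4-fold. The mean of Cox7a1 in Foxo1ff, 0.527 FPKM, was below the minimum of 1 FPKM, so it was tested only through its Foxo1dd values. Cox8b, the muscle form of Cox8, was listed at 0 in every control and at 0.643, 0.633 and 2.66 FPKM in Foxo1dd, below the minimum for testing. Foxo1dd 3 was highest for both genes. Cox6a2, Cox8c and Cox7b2 were listed at 0 throughout, Cox4i2 reached at most 0.647 FPKM and Cox6b2 at most 1.02 FPKM. The 7 smooth muscle markers examined summed to 3.41 to 6.05 FPKM in Foxo1ff and 5.34 to 7.01 FPKM in Foxo1dd. Of the 3 that were tested 1 was called higher, Myl9, named after its values were seen, which went from a mean of 0.603 to 1.81 FPKM. Myl9 too passed the minimum only through its Foxo1dd values. Myh11, a defining marker, was listed at 0 in all controls and had a mean of 0.051 FPKM in Foxo1dd. The means of Acta2 (0.484 to 0.700 FPKM) and Tagln (1.63 to 1.88 FPKM) were also higher in Foxo1dd. Those of Des (1.44 to 1.29 FPKM), Cnn1 (0.419 to 0.309 FPKM) and Actg2 (0.0593 to 0.0297 FPKM) were lower, so the markers did not move in 1 direction. Foxo1dd 2, and not Foxo1dd 3, had the highest marker sum, and the part of muscle cells in the Cox7a1 and Cox8b values was not tested. In captured tissue more cells of a type and more RNA per cell cannot be told apart.

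Complex V makes ATP. Of its 16 genes, all tested, 2 were called higher and 4 lower, with a median log2 change of 0.02. These are 12.5% and 25.0%, against 22.2% and 34.2% of all tested genes. With equal summed FPKM 4 and 2 were called, 25.0% and 12.5% against 28.7% and 25.4%. Atp5f1 (chromosome 3, 105942698 to 105960099, minus strand), subunit b of the stalk that holds the enzyme head still, rose from 144, 162 and 180 to 240, 233 and 249 FPKM (0.57 ± 0.12, limma adjusted p = 0.00309). Atp5l, a small membrane subunit, rose from 44.4, 52.7 and 57.1 to 69.6, 69.3 and 74.8 FPKM (0.47 ± 0.13, limma adjusted p = 0.0111). Groups were apart for both. Atp5l has 9 near-identical copies in the genome and can exchange reads with them, and exons of Atp5f1 lie opposite those of Wdr77.

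The c subunit, which forms the rotating ring, is made from 3 genes that give the same mature protein. Atp5g1 (chromosome 11, 96068852 to 96075670, minus strand) fell from 170, 229 and 285 to 128, 129 and 119 FPKM (-0.83 ± 0.18, limma adjusted p = 0.00346). Atp5g3 was at 281, 359 and 411 against 299, 281 and 245 FPKM and was not called (-0.34 ± 0.16, limma adjusted p = 0.101). Atp5g2 was at 88.3, 107 and 108 against 89.8, 99.0 and 101 FPKM (-0.06 ± 0.12, limma adjusted p = 0.693). Only Atp5g1 of the 3 had groups that did not overlap. Atp5s, the least abundant complex V gene and known as coupling factor B, fell from 7.89, 9.40 and 8.76 to 5.53, 3.22 and 4.67 FPKM (-0.84 ± 0.19, limma adjusted p = 0.00458).

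Atp5b, which encodes the catalytic beta subunit of the head and was the most abundant of the complex V genes, was at 689, 713 and 652 FPKM in the Foxo1ff samples and 557, 494 and 554 FPKM in the Foxo1dd samples (-0.36 ± 0.12, limma adjusted p = 0.0285). Atp5a1, the alpha subunit, was named after its values were seen and had a log2 change of -0.42. The Atp5b call was kept in 8 of 17 alternative fits and the Atp5a1 call in 12, and the lower calls in complex V numbered 2 without Foxo1ff 2 or Foxo1dd 2. Of Cyc1, Uqcrfs1, Atp5a1 and Atp5b, a set put together after their values were seen as redox or head subunits, 4 were called lower on the deposited scale, 1 with median-of-ratios scaling and 0 with equal summed FPKM. The other 10 complex V genes were not called, with log2 changes from -0.34 for Atp5g3 to 0.30 for Atp5e.

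**Figure D3:**
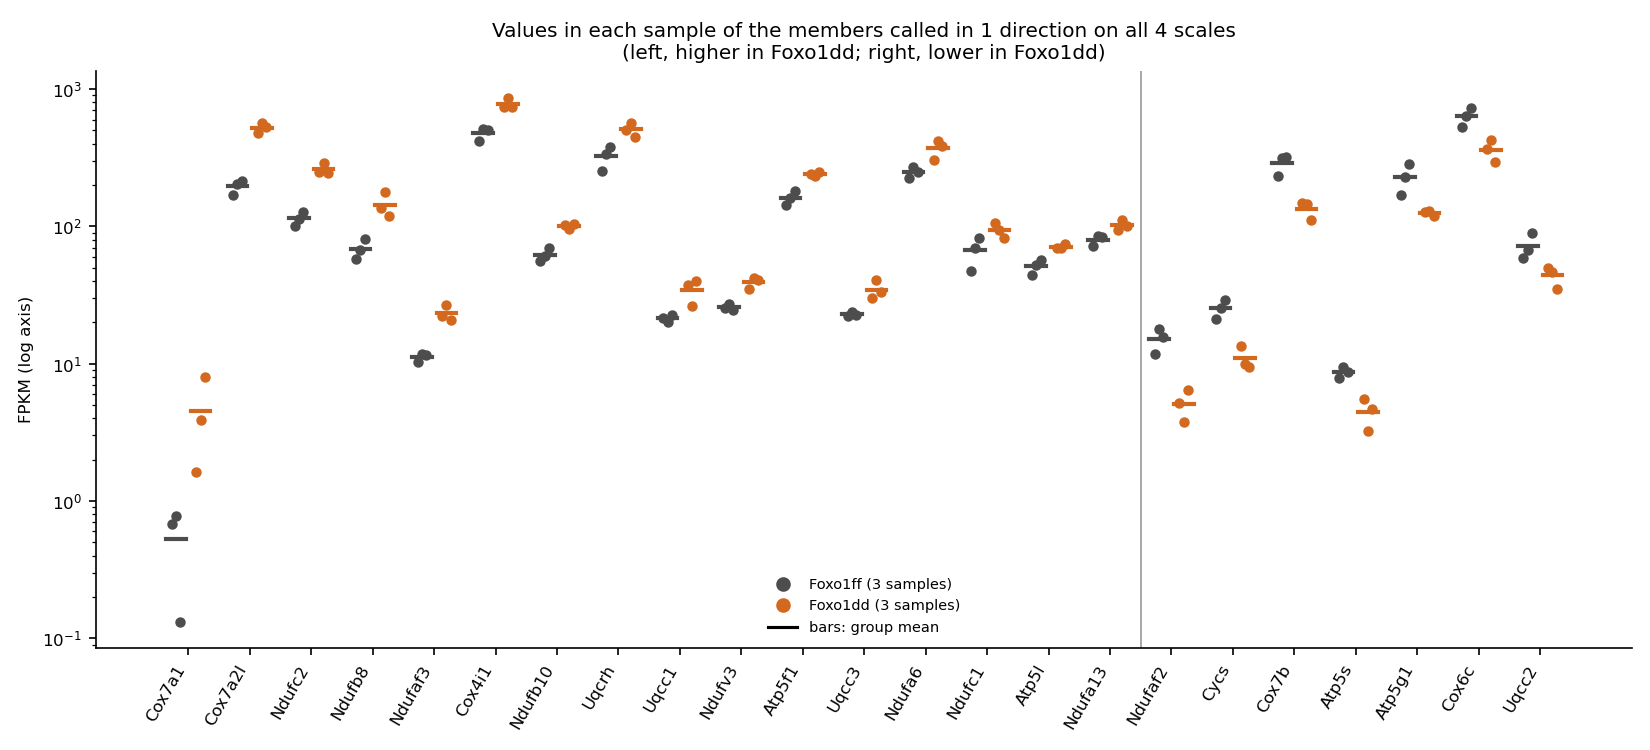
FPKM in each sample, on a log axis, of the 16 genes called higher (left of the line) and the 7 called lower (right) on all 4 scales; points are samples and short bars are group means. For Cox7a2l, Ndufc2, Ndufb8 and Ndufaf3 the 3 Foxo1dd samples all lie above the controls, Cox7a1 is low and scattered, and the Ndufc1 groups overlap.

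Plain FPKM ratios between paired forms within a sample do not depend on the scale between libraries. The log2 differences and their p-values used a pseudocount of 1, so for low genes they do depend on it. For 4 of the 9 pairs planned both genes passed the minimum, Cox7a1 only through its Foxo1dd values. With 3 samples against 3 an exact two-sided permutation test cannot go below p = 0.1, or 0.133 after adjustment over the 4 pairs, so none could pass. The ratio of Cox7a2l to Cox7a2 in FPKM was 1.46, 1.32 and 1.34 in the Foxo1ff samples and 3.31, 3.43 and 4.00 in the Foxo1dd samples, a log2 difference of 1.37 (exact p = 0.1, the smallest possible). The lowest Foxo1dd ratio was above every control ratio. The ratio of Atp5g1 to Atp5g3 was 0.605, 0.638 and 0.695 against 0.426, 0.459 and 0.488, a log2 difference of -0.49 (exact p = 0.1), also without overlap. Cox7a1 to Cox7a2 was far below 1 in all samples, at most 0.00578 in the controls and at most 0.0603 in Foxo1dd, and its log2 difference was 1.66 with a pseudocount of 1 and 2.78 with 0.1 (exact p = 0.1 with both). Atp5g2 to Atp5g3 overlapped between groups (log2 difference 0.27, exact p = 0.2).

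The summed FPKM of all 97 genes was 13760 ± 1557 in Foxo1ff and 14020 ± 824 in Foxo1dd (SD, n = 3 each). As a percentage of the FPKM summed over the whole table, it was 1.96, 2.13 and 2.32% in the Foxo1ff samples and 2.51, 2.70 and 2.35% in the Foxo1dd samples, or 2.14 ± 0.18% against 2.52 ± 0.18% (SD). The groups did not overlap, but Foxo1ff 3 and Foxo1dd 3 were close. The share of the complex I subunits was 0.417, 0.459 and 0.490% against 0.601, 0.663 and 0.586%, apart by more than the spread within either group. The share of complex III was 0.259, 0.280 and 0.302% against 0.341, 0.368 and 0.306%, and that of cytochrome c was lower in each Foxo1dd sample. Complexes II, IV and V and the Ndufaf factors overlapped between groups: complex IV held 0.649 ± 0.072% against 0.764 ± 0.072%, complex V 0.637 ± 0.040% against 0.689 ± 0.033% and complex II 0.0918 ± 0.0071% against 0.0877 ± 0.0046%. The whole summed FPKM of a library was 613186 to 667499 in Foxo1ff and 552190 to 564628 in Foxo1dd, so a share rose relative to a smaller total.

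**Figure D4:**
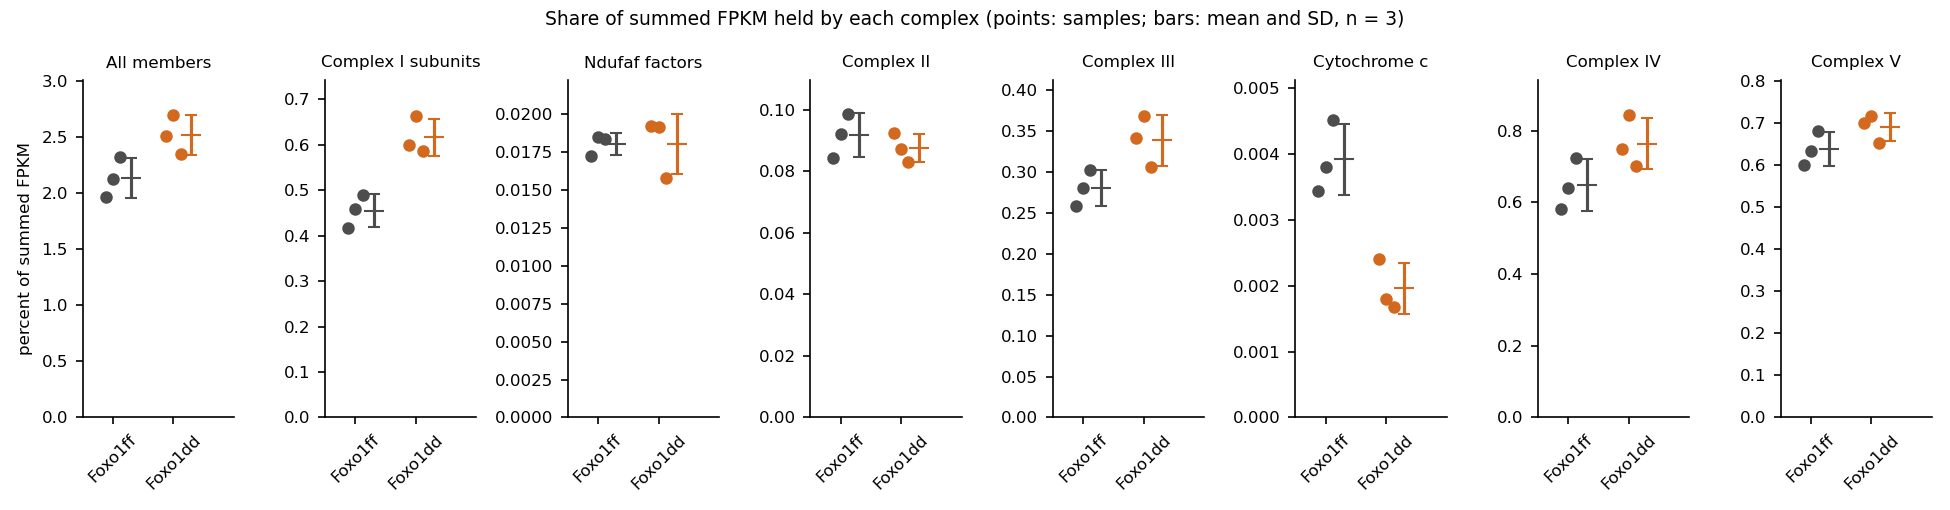
Percentage of the summed FPKM of each sample held by all 97 genes and by each complex (points are samples, bars are the mean and SD of 3, and each axis starts at 0). Complex I subunits go from 0.455 to 0.616% and cytochrome c from 0.00392 to 0.00196% without overlap between groups, and the complex IV and complex V groups overlap.

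The respiratory chain genes also differed together between samples of 1 group. Foxo1ff 2 exceeded Foxo1ff 1 for 83 of the 89 tested genes and Foxo1ff 3 exceeded it for 77, where 48.8% and 40.1% of all tested genes did. The median differences over these genes were 0.25 and 0.32 in log2, against a median of -0.005 between the genotypes. Gene length moved with these differences over the whole table. Of the 643 tested genes of 800 to 1500 bases 479 and 469 were higher, with medians of 0.18 and 0.20, and the 8000 of 3000 bases or more had medians of -0.05 and -0.14. The members of 800 to 1500 bases had medians of 0.30 and 0.36, and those of 3000 bases or more 0.21 and 0.32. The part of length or RNA quality in the difference between these libraries was not tested. Among Foxo1dd samples the members had medians between -0.13 and 0.05, but in the pairs with Foxo1dd 2 all tested genes moved the other way. Foxo1dd 3 exceeded Foxo1dd 2 for 25 of the 89 members and for 65.2% of all tested genes, with medians of -0.13 and 0.14. For Foxo1dd 2 minus Foxo1dd 1 the medians were 0.05 and -0.17, and for Foxo1dd 3 minus Foxo1dd 1 they were -0.08 and -0.02. Foxo1dd 2 had the fewest genes above 0, 13995 against 15474 to 16062 in the others, and the most ribosomal RNA precursor Rn45s, 40296 FPKM. Without Foxo1ff 1, 14 genes were called higher and 24 lower, without Foxo1ff 2 these were 14 and 15, and without Foxo1dd 2 they were 15 and 20.

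The captured cells carried luminal and pan-epithelial markers at a summed 3123 to 4168 FPKM in Foxo1ff and 4837 to 6123 FPKM in Foxo1dd, with 5 of 12 called higher and 2 lower. The 5 were Calb1 (a mean of 4.13 to 538.8 FPKM), Krt19 (47.8 to 417.3 FPKM), Krt8, Cldn3 and Lpar3. The 2 were the general epithelial markers Epcam (554.5 to 393.3 FPKM) and Cdh1 (289.0 to 193.6 FPKM). Glandular markers summed to 53.2 to 214 FPKM against 7.32 to 27.9 FPKM, stromal markers to 14.3 to 20.6 against 14.4 to 26.3 FPKM, endothelial markers to 1.36 to 1.496 against 1.79 to 3.79 FPKM, and leukocyte markers to 24.8 to 25.8 against 66.8 to 83.1 FPKM. Of the 6 tested leukocyte markers 2 were called higher and 4 lower, and most of the higher sum was Laptm5, while the defining marker Ptprc went from a mean of 3.59 to 0.294 FPKM. Of the 5 tested glandular markers 2 were called higher and 3 lower, and Ttr was listed at 0 in all 6 samples. Most of the glandular sum in Foxo1ff was Spink1 (a mean of 93.3 against 0.124 FPKM in Foxo1dd), called lower with Prss28 and Prss29. Sox9 (1.90 to 15.1 FPKM) and Lif (0.269 to 3.02 FPKM) were called higher. Lif passed the minimum only through its Foxo1dd values, and Spink1, Prss28 and Prss29 only through their Foxo1ff values. Which of these cells hold the respiratory chain RNA was not tested.

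Assembly factors outside the Nduf and Uqc names were described from lists of known factors. Pooled after their values were seen, the 5 lists held 38 tested genes with 11 called higher and 2 lower, 28.9% and 5.3% against 22.2% and 34.2% of all tested genes, and a median log2 change of 0.08. The pool leaves out the 8 Ndufaf factors, with 1 higher and 5 lower, and the 3 Uqcc factors, with 2 and 1. On the scale of equal summed FPKM 12 and 1 were called, 31.6% and 2.6% against 28.7% and 25.4%, so the higher calls were near the share of the whole table. Of 9 factors for complex I 1 was higher and 0 lower: Acad9, which also oxidises fatty acyl groups, rose from a mean of 17.9 to 43.1 FPKM (1.23 ± 0.12, limma adjusted p = 3.38e-05). Tmem186, which had the next smallest p of that list, was not called (means of 8.19 and 5.89 FPKM, -0.44 ± 0.19, limma adjusted p = 0.0734). Of 4 factors for complex II 2 were higher, Sdhaf4 (14.4 to 32.4 FPKM) and Sdhaf1 (12.5 to 18.9 FPKM), and 0 were lower. Of the 2 tested factors for complex III both were higher, Bcs1l (5.87 to 13.8 FPKM), which inserts the Rieske protein, and Ttc19 (6.67 to 9.28 FPKM). Of 20 factors for complex IV 5 were higher and 2 lower (Lrpprc and Cox10, named after their values were seen). The smallest p-values were those of Taco1 (9.22 to 25.4 FPKM, 1.36 ± 0.15), which activates translation of a mitochondrial subunit, and Coa3 (67.0 to 140.8 FPKM, 1.07 ± 0.12). Of 3 genes listed for complex V, an inhibitor of the enzyme among them, 1 was higher, Atpaf1 (4.29 to 6.24 FPKM). Atpaf2 was not called (21.3 and 18.8 FPKM).

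The pathways that feed the chain were described in the same way, to be read against 22.2% higher and 34.2% lower over all tested genes, and 28.7% and 25.4% with equal summed FPKM. Of 20 genes of the TCA cycle and pyruvate entry 2 were called higher and 10 lower (median -0.33), and 3 and 6 with equal summed FPKM (15.0% and 30.0%). Citrate synthase, Cs, rose from a mean of 121 to 238 FPKM (0.97 ± 0.12, limma adjusted p = 0.000129), and Suclg2, a subunit of succinyl-CoA ligase, fell from 43.4 to 24.0 FPKM (-0.83 ± 0.12, limma adjusted p = 0.000426). Of 24 tested import and carrier genes 2 were higher and 17 lower (8.3% and 70.8%, median -0.44), and 3 and 9 with equal summed FPKM (12.5% and 37.5%). Timm50, a subunit of the inner membrane translocase, fell from 59.0 to 25.5 FPKM, and Slc25a11, the oxoglutarate carrier, rose from 137 to 291 FPKM. Of 13 coenzyme Q synthesis genes 3 were higher and 5 lower, 23.1% and 38.5%, which is near the whole table, and the balance turned to 4 higher and 3 lower with median-of-ratios scaling and with equal summed FPKM. Coq3 (4.87 to 12.1 FPKM) and Coq8a (9.02 to 3.50 FPKM) had the smallest p-values of that list. Of 7 other donors to coenzyme Q 2 were higher and 1 lower, among them Etfb (65.9 to 110.6 FPKM), a carrier of electrons from fatty acids, and Sqor (21.1 to 7.27 FPKM), which oxidises sulfide.

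Among 19 tested regulators of respiratory genes and of mitochondrial DNA, 2 were called higher and 7 lower, with a median of -0.25. The lower share, 36.8%, was near the 34.2% of all tested genes, and the higher share, 10.5%, was below 22.2%. The counts were 2 and 4 with equal summed FPKM, 10.5% and 21.1% against 28.7% and 25.4%. Esrra, the estrogen-related receptor alpha, was at 11.4, 13.4 and 15.3 FPKM in the Foxo1ff samples and 31.4, 47.0 and 50.3 FPKM in the Foxo1dd samples. It was 3.21-fold higher (1.59 ± 0.19, limma adjusted p = 0.000118). Twnk, the helicase that unwinds mitochondrial DNA, was at 20.5, 21.6 and 16.9 against 6.89, 4.66 and 6.72 FPKM, 3.22-fold lower (-1.55 ± 0.18, limma adjusted p = 8.22e-05). Groups did not overlap for either gene. The coactivators Ppargc1a and Pprc1, which act with such receptors, and Tfam, which packages mitochondrial DNA, were named after their values were seen and were called lower, at -1.20, -1.34 and -0.62. They were also called lower with equal summed FPKM.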

How the data were processed

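RNA-seq values came from 6 libraries of laser-captured epithelium, 3 per genotype, grouped by their titles. The authors deposited 1 table of FPKM values for 24964 genes. The tools listed, per the submitters' processing notes and without their roles, are DESeq2 1.12.4, edgeR 3.28.0, featureCounts 1.5.0-p1 (Subread) and STAR 2.5.2b, and the build is mm10. Not given in the sources used here are the annotation, the strand setting, the treatment of multiply matching reads and any scaling between libraries. As the unit is FPKM, no test for counts was run.

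With limma 3.58.1 (R 4.3.3, lmFit and then eBayes with trend), log2(FPKM + 1) was fitted on genotype alone for the 11427 genes that averaged 1 FPKM or more, and calls were made at a Benjamini-Hochberg adjusted p under 0.05. A pseudocount of 1 understates the change of low genes. Folds are ratios of mean FPKM. The procedure was tested on simulated data. What 1 read is worth was estimated from steps in the values of short genes, at about 0.0102 to 0.0136 FPKM at 1 kb. The largest step was kept that left at least 80% of values below 12 reads whole to within 0.05 of a read. The shares reached, 80.8% to 85.2%, are thus set by the search and do not test the step. The estimate used 26 genes in Foxo1dd 2 and 93 to 132 in the other samples. By this estimate the minimum stands well above a single read.

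Positions are from GENCODE M21 (GRCm38), which had all 97 symbols. Of the 97 genes 28 overlap exons on the opposite strand, 5 overlap exons on the same strand, and 7 have a near-identical copy (at least 95% identity over 50% of the transcript), so their values are less certain. Named were the 4 genes with the smallest p in each complex, every gene called higher, the most and least abundant of each complex, the paired forms and, for each other list, the 2 with the smallest p. Other names were chosen after their values were seen. The genes and lists were chosen with earlier results of these data known. Alternatives were pseudocounts of 0.1 and 0.5, no minimum, a minimum of 5 FPKM, 3 other scales, other eBayes settings, array weights, a replicate block, and leaving out each sample.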

Additional observations from a re-analysis of the deposited data

How the results depend on the processing

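The counts of calls depended mainly on the scale between libraries, and the cause was not tested. With median-of-ratios scaling the lower calls were 12 over all members, 2 for complex I subunits, 3 for Ndufaf factors, 0 for complex II, 2 for complex III and 2 for complex V. With quantile normalization the lower calls were 14, 3, 3, 0, 2 and 2 in the same order, and the higher calls were 28 over all members and 17 for complex I subunits. With equal summed FPKM the lower calls were 7, 0, 1, 0, 1 and 2, and the higher calls were 30 over all members, 17 for complex I subunits and 4 for complex V. With array weights 8 complex I subunits were called lower. Leaving out each sample in turn gave 15 to 24 lower calls over all members, 2 to 5 for Ndufaf factors, 0 to 1 for complex II, 2 to 4 for complex III and 2 to 5 for complex V. The other 278 comparisons with an alternative, of such counts, of shares and of the ratios of paired forms, were taken as unchanged. For counts this meant within 1.5 times, for shares within the spread, and for ratios only the same sign. The log2 difference of Cox7a1 to Cox7a2, for example, went from 1.66 to 2.78 with a pseudocount of 0.1.

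The replicate numbers did not pair the samples: same-numbered samples had correlations of 0.123, 0.107 and -0.133 in their deviations from the group means, and not every sample correlated best with its own number. With the number as a replicate block 15 members were called higher and 19 lower, and the complex III lower calls went from 4 to 2.

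Log2 changes near 0 changed sign for genes that were not called. With median-of-ratios scaling, quantile normalization and equal summed FPKM, Ndufaf8 was at 0.119, 0.152 and 0.196, Sdha at 0.014, 0.010 and 0.091, Sdhb at 0.027, 0.073 and 0.106 and Atp5g2 at 0.064, 0.052 and 0.142. With equal summed FPKM Cox6a1 was at 0.034, Ndufa4 at 0.015 and Atpaf2 at 0.023. With array weights Cox6b1 was at -0.074 and Cox7a2 at -0.090. Over the samples left out, Ndufaf8 ran from -0.077 to 0.090, Ndufaf5 from -0.058 to 0.253, Sdhb from -0.213 to 0.015, Cox6b1 from -0.104 to 0.101 and Cox7a2 from -0.094 to 0.129. FPKM without counts gives no counting error for single genes, so the spread among 3 samples is the only error given.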
